A study of Mus musculus with 7 samples.

Results

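Genes of Schwann cells and myelin were examined in the carotid artery of mouse offspring from reciprocal crosses. The 28 genes were chosen by name and by what they are known to do, and each was read from the brightest probe set annotated to that symbol alone. Of the 28, 26 had such a probe set, out of 18193 genes on the array with one, and 21 of them passed a filter on dim probe sets, out of 12713 genes. In 4 samples the mother was a hypercholesterolemic ApoE-/- mouse and the father wild type, and in 3 samples the mother was a normocholesterolemic wild-type mouse and the father ApoE-/-. All offspring were ApoE-/+, so the crosses differed in the parent that lacked apolipoprotein E, the ligand by which lipoproteins are cleared from plasma. Age, sex, litter and the number of animals behind each array are not given in the labels, so the p-values rest on the spread between arrays, which may be technical. Arrays are called ApoE-null mother 1 to 4 and wild-type mother 1 to 3, numbers that name arrays and pair nothing.

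Schwann cells are the glia of peripheral nerves, and nerve bundles run in the adventitia of the carotid artery and beside it. Axonal neuregulin, read through the receptor ErbB3, keeps these cells alive and sets how much myelin they make. Sox10 defines the lineage, Pou3f1 (Oct6) and Egr2 (Krox20) drive the step to myelination, and the products are the proteins of compact myelin, the proteins of the cytoplasmic channels and the lipid enzymes. Many autonomic fibres are instead held unmyelinated by Schwann cells that keep Ngfr, Ncam1, L1cam, Gfap and Scn7a.

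Values are MAS5 signals, a linear brightness per probe set. The 7 arrays had median signals of 36.0 to 42.1. As a floor, each array has 27 bacterial probe sets that match no mouse gene, and the brightest of them on any array reached 22.0. Smooth muscle of the labelled artery was read, with a signal of 9492 to 13536 for Acta2 on the 7 arrays. Adipocyte markers were bright as well, with 3486 to 9844 for Fabp4, so the samples were not artery wall alone. One array stood apart: wild-type mother 2 had a Xist signal of 41.2 where the others had 5174 to 5931, and skeletal muscle markers that summed to 2630 where the others summed to 144.5 to 412.3. Its ratio of 3' to 5' Gapdh signal, a sign of RNA quality, was 7.80 where the others had 5.03 to 6.56. Values without it are given beside the members it moves by over 1.5 times. In whole tissue, fewer Schwann cells and less RNA per Schwann cell cannot be told apart.

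Between the crosses, 17 of the 21 measured members had a lower value with an ApoE-null mother and 4 a higher one, and none passed the test. The median log2 fold change of the members, ApoE-null mother minus wild-type mother, was -0.68, beside -0.01 for all genes tested, of which 51.2% were below 0. The number below 0 was 17 when any 1 array was left out and after quantile normalization. The median was less steady: it was -0.27 without wild-type mother 3, -0.40 without wild-type mother 1, -0.45 without ApoE-null mother 4 and -0.44 with a pseudocount of 16. Adjusted p-values of the members were 0.474 to 0.912 (limma, Benjamini-Hochberg over 27027 probe sets), and 1 probe set of that number, or 0.0037%, was called (0.00787% of genes). At an unadjusted p under 0.05 in limma, 5 members were lower and 0 higher, or 23.8% lower, beside 4.22% of all genes lower and 4.43% higher. Those 5 were Sox10, Erbb3, Cadm1, Cnp and L1cam. In 3 members (14.3%), Cnp, L1cam and Cadm1, the groups did not overlap and the ApoE-null mother arrays were the lower ones, beside 4.24% of genes lower and 4.34% higher. In the other 18 members the groups overlapped. Spread within a cross was wide beside that of all genes. Their median residual standard deviation was 0.61 on the log2 scale against 0.26 over all genes tested, and the brightest array of the ApoE-null mother group was a median of 2.65 times the dimmest, against 1.42 times over all genes. That ratio was over 2 in 15 members, beside 14.6% of genes.

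**Figure D1:**
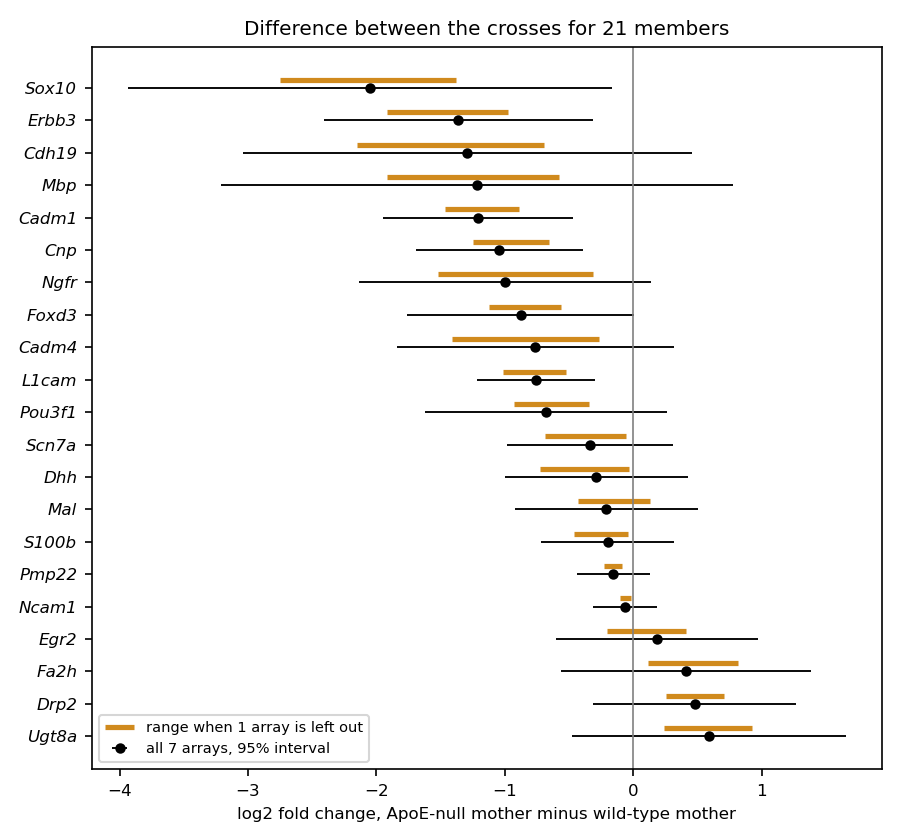
Log2 fold change of the 21 measured members, ApoE-null mother minus wild-type mother, on the log2(signal + 2) scale. Points and thin bars are the limma estimate and its 95% interval with 7 arrays, and thick bars the range when 1 array is left out. The points of 17 members lie below 0, and the ranges of Egr2 and Mal cross 0.

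The transcription factors act first in the lineage. Sox10, the factor that defines the Schwann cell and melanocyte lineages, had signals of 83.0, 12.2, 95.8 and 5.6 with an ApoE-null mother, against 157.5, 46.7 and 265.9 with a wild-type mother. The groups overlapped, and on ApoE-null mother 2 and 4 Sox10 was no brighter than the bacterial floor. Its log2 fold change was -2.05 ± 0.86 (SE; limma, adjusted p = 0.590), with -2.75 when wild-type mother 2 was left out, -1.52 when wild-type mother 3 was and -1.38 when ApoE-null mother 4 was. Another Sox10 probe set past the filter disagreed, with 63.8, 33.2, 50.1 and 31.0 with an ApoE-null mother, against 17.8, 37.0 and 70.3 with a wild-type mother and a log2 fold change of 0.23. The probe sets differed most on wild-type mother 1, which was the second brightest on the main probe set and the dimmest on the other.

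Foxd3, a neural crest factor kept in early glia, had signals of 56.7, 17.7, 57.6 and 27.5 with an ApoE-null mother, against 74.4, 47.4 and 86.4 with a wild-type mother. Its log2 fold change was -0.88 with an interval of -1.76 to 0.01 (limma, adjusted p = 0.610). On ApoE-null mother 2 it was under the brightest bacterial probe set of that array, which was at 19.0. Pou3f1, which promotes the entry into myelination, was dim, with 9.4 to 31.0 with an ApoE-null mother and 23.6 to 44.2 with a wild-type mother (log2 fold change -0.68). It was under the brightest bacterial probe set on ApoE-null mother 4. Egr2, the master factor of myelination and also an early response gene in many cells, had another array order than Sox10. It had signals of 193.8, 95.9, 185.6 and 86.6 with an ApoE-null mother, against 159.0, 145.5 and 66.8 with a wild-type mother. The array with the highest Sox10, wild-type mother 3, thus had the lowest Egr2. The log2 fold change of Egr2 was 0.18, and -0.21 without that array, while leaving out wild-type mother 2 gave 0.34.

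Of the 3 genes of compact myelin past the filter, Mbp spread most. Mbp, the basic protein that holds the cytoplasmic faces of myelin together, had signals of 1422.9, 133.0, 1173.9 and 101.4 with an ApoE-null mother, against 1000.2, 343.6 and 2183.7 with a wild-type mother. Within the ApoE-null mother group the brightest array was 14.0 times the dimmest, and within the wild-type mother group 6.36 times. The difference between the groups was smaller than that spread, with means of 708 ± 690 (SD, n = 4) and 1176 ± 933 (SD, n = 3) and a log2 fold change of -1.22 ± 0.91 (SE; limma, adjusted p = 0.741). Leaving out wild-type mother 3 gave -0.59, and leaving out wild-type mother 2 gave -1.92. Leaving out an ApoE-null mother array gave -1.84 to -0.58, the last of these without array 4.

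Mbp has 8 probe sets on the array, all past the filter. On 5 of them the lowest 3 arrays were the same, namely ApoE-null mother 2, ApoE-null mother 4 and wild-type mother 2. Those 5 had log2 fold changes of -1.22, -0.81, -0.89, -1.03 and -0.95, and 3 of them are of the class (_x_at) open to cross-hybridisation. The other 3 were dimmer and did not show the array order. Their values were 0.03, -0.78 and 0.42.

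**Figure D2:**
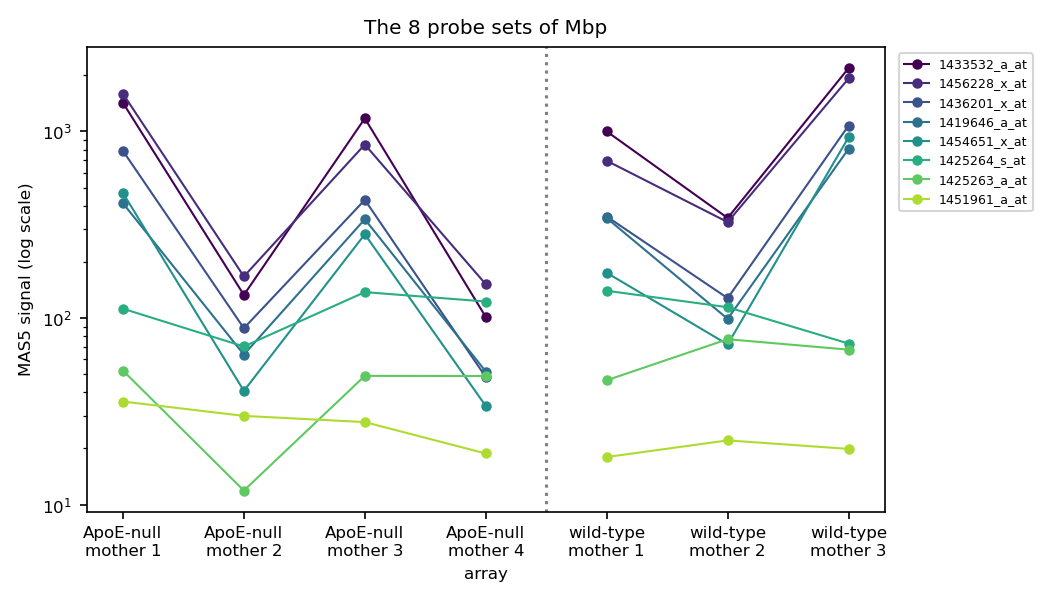
MAS5 signal (log axis) of the 8 probe sets of Mbp on each array, ApoE-null mother left of the dotted line and wild-type mother right of it. Lines only join the points of a probe set. On 5 probe sets ApoE-null mother 2 and 4 and wild-type mother 2 are the lowest arrays, and the 3 dimmer ones lack that order.

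Pmp22, a membrane protein of compact myelin that fibroblasts and other cells also make, was steady. It had signals of 4430.3, 3285.6, 3806.6 and 3697.3 with an ApoE-null mother, against 4051.3, 4042.3 and 4575.4 with a wild-type mother, a log2 fold change of -0.16 with an interval of -0.44 to 0.13. Mal, a proteolipid of myelin that is also made in T cells and epithelia, had 92.1 to 230.6 with an ApoE-null mother, against 127.7 to 268.7 with a wild-type mother, and its log2 fold change of -0.21 was 0.13 with wild-type mother 3 left out and -0.36 with wild-type mother 2 left out. Pmp2, the fatty acid binding protein of peripheral myelin, was above the bacterial probe sets on ApoE-null mother 3 alone, at 39.7, with 1.1 to 8.8 on the other 6 arrays.

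Of the proteins of non-compact myelin and the Schwann cell membrane, Cnp and Drp2 were measured. Cnp, a phosphodiesterase of the cytoplasmic channels of myelin, had signals of 822.6, 648.4, 503.8 and 428.6 with an ApoE-null mother, against 928.6, 909.2 and 2060.5 with a wild-type mother. The groups did not overlap, and the gap between the nearest arrays was small beside the distance of wild-type mother 3 from its own group. The log2 fold change was -1.04 ± 0.30 (SE; limma, adjusted p = 0.480), and -0.66 without wild-type mother 3. That probe set is of the same class, open to cross-hybridisation. The next Cnp probe set had 119.1, 78.3, 98.6 and 69.9 with an ApoE-null mother, against 153.6, 89.4 and 369.8 with a wild-type mother, which overlapped (log2 fold change -0.93), and the dimmest one gave -0.33.

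Drp2, the dystrophin-related partner of periaxin under the abaxonal membrane, was lowest on wild-type mother 3, as Egr2 was. It had 107.9, 46.5, 97.3 and 40.7 with an ApoE-null mother, against 64.3, 43.7 and 38.1 with a wild-type mother, a log2 fold change of 0.48, and a further probe set gave 91.9, 22.4, 103.5 and 18.1 with an ApoE-null mother, against 43.6, 26.0 and 20.2 with a wild-type mother. On both probe sets ApoE-null mother 1 and 3 were the brightest of the 7 arrays. Mag, the adhesion protein facing the axon, had a mean signal of 20.4, just under the filter of 23.6. It was above the bacterial probe sets on 3 of 4 arrays with an ApoE-null mother and on 2 of 3 with a wild-type mother. Cldn19, a myelin tight junction protein, had 13.5, 2.4, 14.9 and 2 with an ApoE-null mother, against 18.8, 1.7 and 16.7 with a wild-type mother. It was above the bacterial probe sets on 0 of 4 and 2 of 3 arrays, a count that rests on unequal floors. The values of 13.5 and 14.9 were under the floors of their own arrays, 16.5 and 20.4, but over the 10.5 of wild-type mother 1. Its lowest 3 arrays were those of Mbp. Gjb1, the connexin of non-compact myelin, was above the bacterial probe sets on none of the 7. Prx and Gldn had no probe set annotated to their symbol alone and were not analysed here.

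Erbb3, the neuregulin receptor, ordered the arrays as Mbp did at the low end. Its signals were 220.1, 99.7, 223.2 and 70.0 with an ApoE-null mother, against 443.8, 163.2 and 611.1 with a wild-type mother. Only wild-type mother 2 lay within the range of the other group. The log2 fold change was -1.36 ± 0.48 (SE; limma, adjusted p = 0.543). Without wild-type mother 2 it was -1.92 (limma, adjusted p = 0.258), and over single arrays left out it ran from -1.92 to -0.97.

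Ngfr, the low-affinity neurotrophin receptor of immature, non-myelinating and injured Schwann cells and of sympathetic neurons, had 35.8, 69.9, 89.9 and 31.9 with an ApoE-null mother, against 277.0, 50.5 and 84.1 with a wild-type mother. The geometric mean of signal + 2 with an ApoE-null mother was 0.499 times that with a wild-type mother (interval of the log2 fold change -2.14 to 0.14), and without wild-type mother 1 the log2 fold change was -0.32, while leaving out wild-type mother 2 gave -1.52. Dhh, the hedgehog ligand by which Schwann cells organise the perineurium and which endothelium also makes, had 355.7, 236.3, 372.3 and 488.6 with an ApoE-null mother, against 552.6, 234.1 and 613.0 with a wild-type mother. Here ApoE-null mother 4, the lowest array for Mbp, was the brightest of its group, and the log2 fold change was -0.29, or -0.72 with wild-type mother 2 left out and -0.03 with wild-type mother 3 left out.

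The adhesion molecules differed in which array was brightest. Cdh19, a cadherin of the Schwann cell lineage, had signals of 359.5, 130.4, 707.9 and 59.7 with an ApoE-null mother, against 769.4, 157.0 and 1170.7 with a wild-type mother. The brightest array was 11.9 times the dimmest in the ApoE-null mother group and 7.46 times in the other, and the log2 fold change was -1.29 ± 0.80 (SE; limma, adjusted p = 0.689). It was -2.15 without wild-type mother 2, -0.71 when wild-type mother 3 was left out and -0.69 when ApoE-null mother 4 was. Cadm4, the Schwann cell partner of axonal nectin-like proteins, had 96.5, 49.4, 112.0 and 43.9 with an ApoE-null mother, against 148.6, 47.4 and 240.8 with a wild-type mother. Its log2 fold change was -0.76, and it moved to -0.27 when wild-type mother 3 was left out and to -1.41 when wild-type mother 2 was.

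Cadm1 and L1cam, which axons and neurons also carry, had their highest signals on wild-type mother 1 and did not overlap between the groups. Cadm1 had 309.4, 347.3, 526.3 and 158.3 with an ApoE-null mother, against 989.1, 574.4 and 638.3 with a wild-type mother, a log2 fold change of -1.21 ± 0.34 (SE; limma, adjusted p = 0.477). Its other probe sets past the filter gave -1.16, with ApoE-null mother 3 above wild-type mother 2 and so an overlap, and -1.55, without overlap. L1cam, an adhesion protein of unmyelinated axons and their Schwann cells, had 406.8, 342.3, 386.4 and 377.0 with an ApoE-null mother, against 880.0, 444.3 and 667.9 with a wild-type mother. The ApoE-null mother arrays of L1cam kept within 1.19 times of each other, and its log2 fold change was -0.76 ± 0.21 (SE; limma, adjusted p = 0.474). Without wild-type mother 2 it was -1.02 (limma, adjusted p = 0.14). Ncam1 hardly varied, at 2868 to 3316 with an ApoE-null mother, against 3121 to 3446 with a wild-type mother, a log2 fold change of -0.06 with an interval of -0.31 to 0.19.

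**Figure D3:**
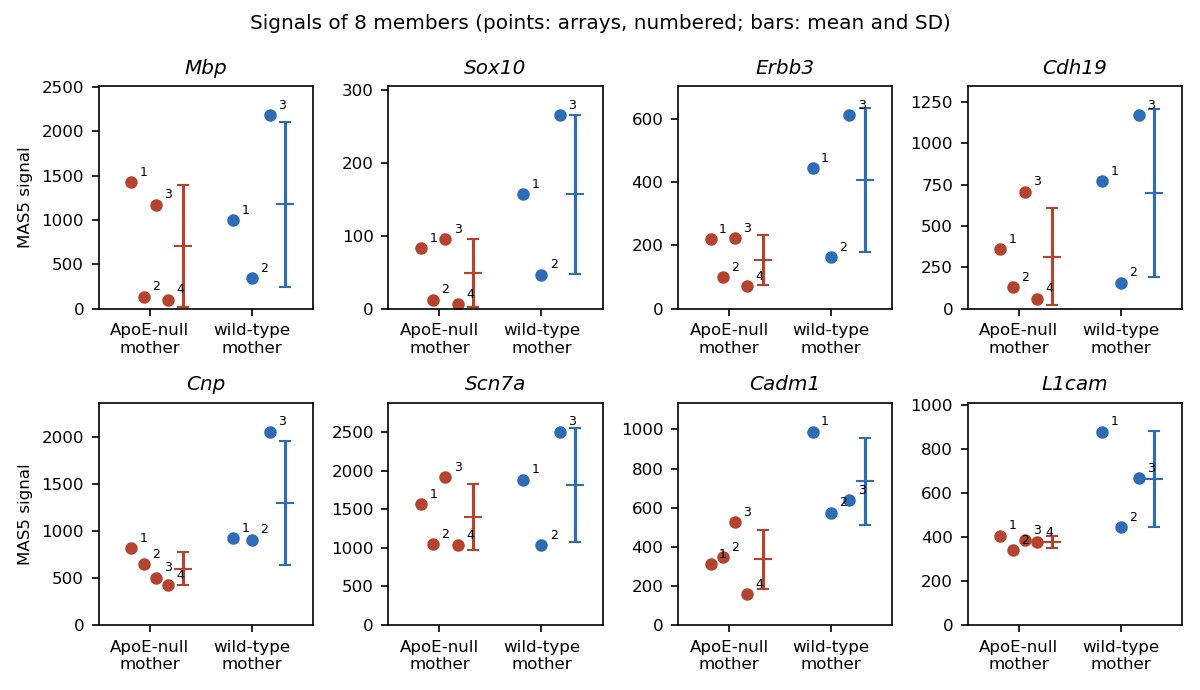
MAS5 signals (linear axes from 0) of 8 members, with each array as a numbered point and the group mean and SD beside it. ApoE-null mother 2 and 4 are the lowest for Mbp, Sox10, Erbb3 and Cdh19, wild-type mother 2 is the lowest of its group on every panel, and groups do not overlap for Cnp, Cadm1 and L1cam.

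The 2 enzymes of myelin lipids among the members, Ugt8a and Fa2h, had higher means with an ApoE-null mother. Ugt8a, which makes galactosylceramide, had signals of 46.4, 25, 64.5 and 15.5 with an ApoE-null mother, against 29.5, 12.4 and 26.0 with a wild-type mother. On wild-type mother 2 it was under the brightest bacterial probe set. Fa2h, the fatty acid hydroxylase of myelin sphingolipids, had 91.2, 39.2, 76.7 and 19.7 with an ApoE-null mother, against 32.4, 40.1 and 36.1 with a wild-type mother. Their log2 fold changes were 0.59 and 0.41 with intervals that included 0, and leaving out 1 array gave 0.24 (wild-type mother 2) to 0.92 for Ugt8a and 0.12 to 0.82 for Fa2h. In both, ApoE-null mother 1 and 3 were the brightest of the 7 arrays, as for Drp2.

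The remaining members were S100b, Scn7a and Gfap. S100b, a calcium-binding protein of Schwann cells and adipocytes, had 166.4, 141.9, 199.1 and 129.8 with an ApoE-null mother, against 225.9, 124.5 and 210.1 with a wild-type mother, a log2 fold change of -0.20, or -0.47 with wild-type mother 2 left out. Scn7a, the sodium-sensing channel of non-myelinating Schwann cells, had 1567.8, 1053.9, 1923.2 and 1040.2 with an ApoE-null mother, against 1888.5, 1039.6 and 2511.3 with a wild-type mother, a log2 fold change of -0.34, or -0.69 with wild-type mother 2 left out and -0.06 with wild-type mother 3 left out. The 3 low arrays of Scn7a lay between 1039.6 and 1053.9, and the other 4 at 1567.8 or more. Gfap, the filament of non-myelinating Schwann cells and astrocytes, was above the bacterial probe sets on 1 array of each group on its brightest probe set. On the next it had 1.0, 2.4, 0.9 and 7.2 with an ApoE-null mother, against 10.7, 23.7 and 12.5 with a wild-type mother, above them on 0 of 4 and on 3 of 3 arrays, by little. On wild-type mother 1 and 2 the brightest bacterial probe set was at 10.5 and 22.0, just under those values. The dimmest Gfap probe set had 12.4, 8.6, 1.7 and 0.4 with an ApoE-null mother, against 10.7, 0.9 and 1.3 with a wild-type mother, which overlapped. All were under the filter, so Gfap has no test. How often such dim probe sets separate the crosses was not tested.

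Across the 7 arrays a part of the members shared an order that cut across the crosses. In 9 of 21 members (42.9%) the lowest 3 arrays were ApoE-null mother 2, ApoE-null mother 4 and wild-type mother 2, beside 2.4% of all genes. These 9 were Sox10, Foxd3, Mbp, Erbb3, Cdh19, Cadm4, Ugt8a, S100b and Scn7a. Within the ApoE-null mother group, 14 of 21 members (66.7%) had both array 1 and array 3 above arrays 2 and 4, beside 15.8% of genes. Egr2, Drp2, Fa2h, Pmp22 and L1cam joined the 9 there. Wild-type mother 2 was the lowest of its group in 15 members (71.4%), beside 37.2% of genes. Wild-type mother 3 was the highest of its group in 12 members (57.1%), beside 33.5% of genes, and in the same 12 it was the highest of all arrays. ApoE-null mother 4 was the lowest of all arrays in 10 members, beside 13.1% of genes. Wild-type mother 1 was the highest of its group in 7 members (33.3%), close to the 31.5% of genes. The order was read from these values after they were seen and carries no test, and the members share their arrays, so they are not independent of each other.

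Wild-type mother 3 was not high for every member. It had the highest signals of Sox10, Mbp, Erbb3, Cdh19, Cadm4, Cnp and Scn7a, and the lowest of Egr2 and Drp2. Ugt8a and Fa2h were at 26.0 and 36.1 there, below their values on ApoE-null mother 1 and 3. When wild-type mother 2 was left out, 10 of 21 members did not overlap between the groups, all of them lower with an ApoE-null mother, beside 10.4% of genes lower and 9.88% higher. Those 10 were Sox10, Foxd3, Cnp, Erbb3, Dhh, L1cam, Cdh19, Cadm1, Cadm4 and S100b, and still 0 members passed the test (limma, adjusted over all probe sets). Without wild-type mother 1 the count was 5, beside 9.99% of genes lower. It was 4 without ApoE-null mother 1 (7.13% of genes), and 3 without ApoE-null mother 2 (5.64%), 3 (5.41%) or 4 (7.84%) and without wild-type mother 3 (7.29%).

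**Figure D4:**
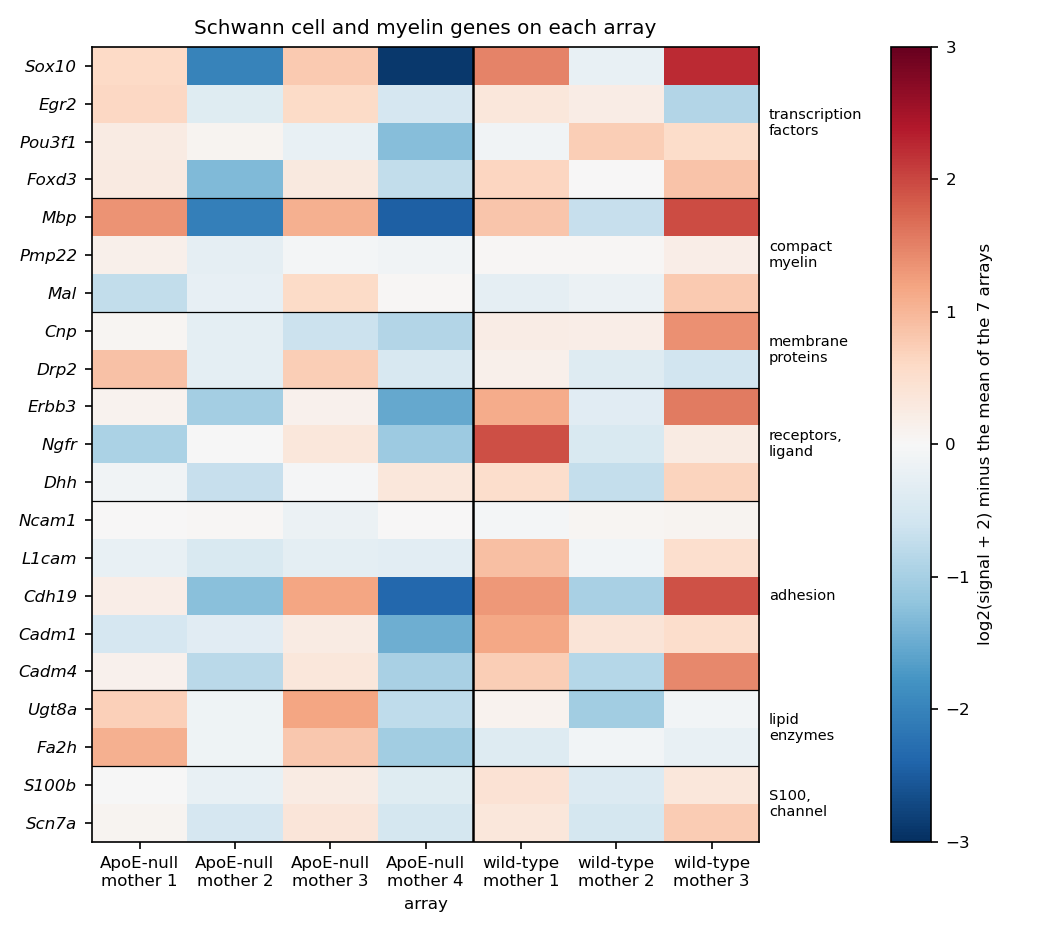
Log2(signal + 2) of the 21 measured members minus their mean over the 7 arrays, by role of the gene (rows) and array (columns, ApoE-null mother left of the line). ApoE-null mother 2 and 4 are blue for Sox10, Mbp, Erbb3 and Cdh19, and wild-type mother 3 is red for those genes and blue for Egr2 and Drp2.

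Of the 9 members with the shared order, 3 had signals above the bacterial probe sets on all 7 arrays and a single start in the RefSeq promoter table (GRCm38.p6), and the 250 bases before that start are shown because these genes share their lowest arrays with Mbp. Capitals mark matches to motifs of factors among the members, searched on both strands: ACAAAG and ACAATG for Sox factors, which share their first bases, GCGNGGGCG for Egr factors and ATGCAAAT for POU factors. Cadm4 lies on the plus strand at chr7:24481773-24482022, S100b on the plus strand at chr10:76253586-76253835, and Scn7a on the minus strand at chr2:66784911-66785160.
Cadm4: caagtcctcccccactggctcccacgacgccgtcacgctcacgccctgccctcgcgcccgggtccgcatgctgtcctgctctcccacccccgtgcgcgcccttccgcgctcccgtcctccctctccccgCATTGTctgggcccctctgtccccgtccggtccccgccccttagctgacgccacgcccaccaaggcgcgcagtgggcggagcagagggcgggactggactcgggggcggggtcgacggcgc
S100b: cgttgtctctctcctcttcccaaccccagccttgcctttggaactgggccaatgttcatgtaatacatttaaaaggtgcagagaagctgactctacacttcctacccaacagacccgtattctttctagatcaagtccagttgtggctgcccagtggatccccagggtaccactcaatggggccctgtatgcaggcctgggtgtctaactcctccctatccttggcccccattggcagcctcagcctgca
Scn7a: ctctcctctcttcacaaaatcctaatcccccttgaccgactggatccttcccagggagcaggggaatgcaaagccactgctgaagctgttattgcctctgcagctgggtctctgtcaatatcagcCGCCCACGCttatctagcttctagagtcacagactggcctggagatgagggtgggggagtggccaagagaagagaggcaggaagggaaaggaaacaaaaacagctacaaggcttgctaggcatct

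The Cadm4 window held 1 Sox match, 121 to 116 bases before the start on the opposite strand, and the Scn7a window 1 Egr match, 125 to 117 bases before the start. The S100b window held no match. Over the 32851 promoters of the table, 25.2% of such windows held a Sox match, 4.7% an Egr match and 1.6% a POU match. Of the 32 promoter entries of 18 members, 6 held a Sox match, 1 an Egr match and 4 a POU match. The windows differed in base composition, with 75.2% G and C in Cadm4, 53.6% in S100b and 53.2% in Scn7a, beside a median of 52.4%.

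Other genes of Schwann cells and myelin were read from a list of 29. Of 23 measured, 0 passed the test (limma), 19 were below 0 and 4 above, and the median log2 fold change was -0.28. The same 3 arrays were lowest in 7 of them (Sox2, Lgi4, Ndrg1, Plekhb1, Gatm, Kcna1 and Matn2). The smallest p in limma belonged to Itgb4, the laminin receptor subunit of the abaxonal Schwann cell membrane and perineurium, with 61.1, 53.8, 100.7 and 62.3 with an ApoE-null mother, against 184.9, 107.4 and 204.8 with a wild-type mother and a log2 fold change of -1.22 (limma, adjusted p = 0.418). Adgrg6, the receptor that starts myelination, was at -1.20 and Lgi4, a secreted signal of Schwann cells, at -1.38 (limma, adjusted p = 0.502 and 0.532). In both the groups overlapped. Of the 23 genes, 2 were lower without overlap, Itgb4 and Zeb2 (log2 fold change -0.29), beside 4.24% of all genes. As many, 2, were higher without overlap, Nab1 (0.29) and Fgd4 (0.53), beside 4.34% of all genes.

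Connected pathways were read in the same way. For synthesis of myelin lipids other than the members, 4 of 8 measured genes were below 0, with a median of 0.06, and no gene had the shared low arrays. Gal3st1 had 44.8, 41.9, 41.4 and 33.4 with an ApoE-null mother, against 54.9, 66.6 and 66.1 with a wild-type mother. Its log2 fold change was -0.61 (limma, adjusted p = 0.551). It was the 1 gene of the 8 without overlap, beside 4.24% of genes lower and 4.34% higher. For neuregulin signalling, 3 of 5 were below 0 with a median of -0.03, and Nrg1 itself was at or under the bacterial probe sets on every array. In 1 of the 5, Adam10, the ApoE-null mother arrays were higher without overlap, beside 4.34% of genes. Adam10 had 1953.8 to 2688.8 with an ApoE-null mother, against 1789.2 to 1950.5 with a wild-type mother (limma, log2 fold change 0.25, adjusted p = 0.661). Genes of the repair programme of injured Schwann cells had a median of 0.04 over 5 measured genes, with Jun at 664.1 to 989.8 with an ApoE-null mother, against 785.1 to 864.1 with a wild-type mother. None of these genes passed the test (limma, smallest adjusted p = 0.55, 0.66 and 0.65).

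Markers of neurons and glomus cells, the other cells of nerve, ganglion and carotid body, peaked on another array. All 15 measured ones were highest on wild-type mother 1, as were Ngfr, L1cam, Cadm1 and S100b among the members. All 15 had a log2 fold change below 0 (median -0.67, none called in limma), beside 51.2% of all genes. Their scores (mean log2 deviation) were -1.10, 0.24, 1.11 and -1.40 with an ApoE-null mother, against 2.63, -0.02 and -1.45 with a wild-type mother. Only wild-type mother 1 lay above the ApoE-null mother range, so the shared direction does not show a difference common to the wild-type mother arrays. Uchl1 was the 1 marker lower without overlap. Fold changes without wild-type mother 1 are not given for these markers. With Nefm, which was under the filter, their signals summed to 802.1 to 3680.6 with an ApoE-null mother and 710.5 to 10272.7 with a wild-type mother. The lowest sum was on wild-type mother 3, the array with the highest signals for Mbp, Sox10 and Erbb3. Th, the first enzyme of catecholamine synthesis, was 27.1 there and 687.5 on wild-type mother 1. Fabp7, a marker of immature and satellite glia, also peaked on wild-type mother 1, with 88.2, 200.4, 429.1 and 33.7 with an ApoE-null mother, against 944.4, 164.9 and 179.4 with a wild-type mother. Its list of satellite glia and astrocyte markers was divided. Of 4 measured genes, 2 were highest on wild-type mother 1, and 2 were below 0 and 2 above. Glul, with the smallest p of that list, was lowest on wild-type mother 1, at 3134.2. Its log2 fold change was 0.40 (limma, adjusted p = 0.529). The part of neuron and ganglion tissue in the values of Ngfr, L1cam and Cadm1 was not tested.

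**Figure D5:**
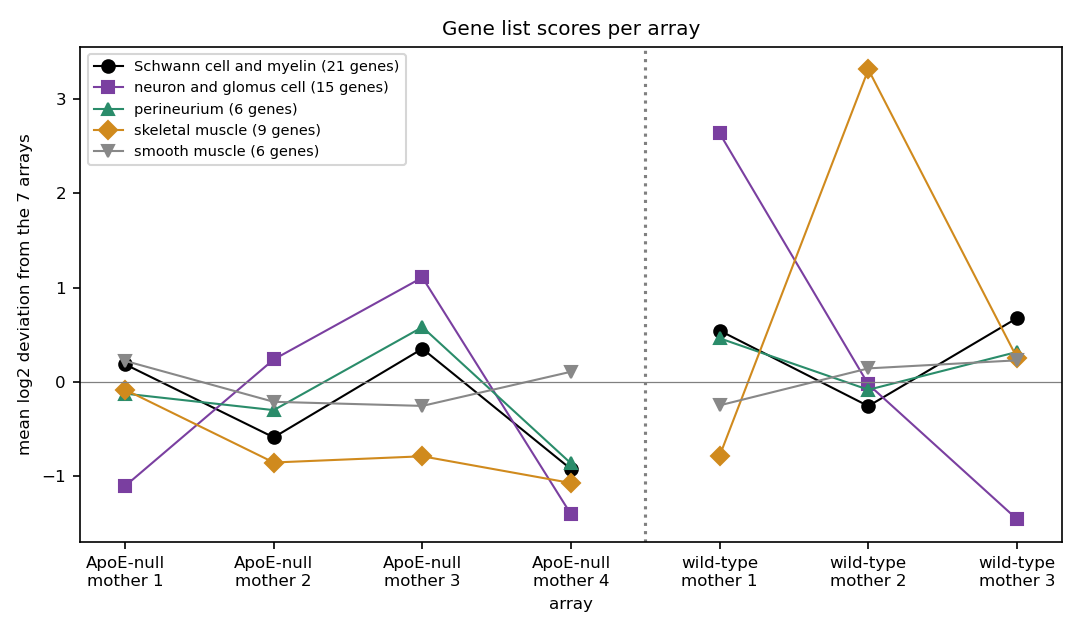
Mean log2 deviation from the 7-array mean for 5 gene lists on each array, ApoE-null mother left of the dotted line. Lines only join the points of a list. The Schwann cell and myelin score is 0.54 and 0.68 on wild-type mother 1 and 3, where the neuron score is 2.63 and -1.45.

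Markers of further cell types were read for their directions, and for their sums over every listed gene with a probe set. Oligodendrocyte markers, which would mark central myelin, had 1 of 7 genes past the filter (Myrf), and Mog, Olig2 and Ermn were at or under the bacterial probe sets on every array. Mobp and Opalin, also under the filter, were each above them on 3 of 4 arrays with an ApoE-null mother and 2 of 3 with a wild-type mother, and Hapln2 on 2 of 4 and 0 of 3. Mobp had 39.1, 7.2, 33.3 and 11.0 with an ApoE-null mother, against 17.3, 5.9 and 39.1 with a wild-type mother, lowest on the same 3 arrays as Mbp. The part of central myelin in the values of Mbp was not tested. Melanocytes share Sox10. Melanocyte markers summed to 147.3 to 261.7 with an ApoE-null mother, against 155.1 to 251.6 with a wild-type mother, and 1 of 4 measured genes was below 0. In 1 of the 4, Slc45a2, the lowest 3 arrays were those of Mbp and Sox10. The part of melanocytes in the values of Sox10 was not tested. Perineurium markers summed to 2248 to 3587 with an ApoE-null mother, against 2534 to 3087 with a wild-type mother, with 4 of 6 below 0. Their scores were -0.12, -0.30, 0.58 and -0.86 with an ApoE-null mother, against 0.46, -0.08 and 0.32 with a wild-type mother. ApoE-null mother 4 and 2 had the lowest scores, as they had for the members. In 1 of the 6, Tenm2, the lowest 3 arrays were those of Mbp, beside 2.4% of all genes. Skeletal muscle markers were highest on wild-type mother 2 in 9 of 9 measured genes. Adipocyte markers summed to 15093 to 21017 with an ApoE-null mother, against 7249 to 18099 with a wild-type mother, with the lowest sum on wild-type mother 3. Of 5 measured, 4 were above 0, and 1, Ucp1, was higher without overlap, beside 4.34% of all genes. Ucp1 had 3146.6 to 5059.5 with an ApoE-null mother, against 420.1 to 2297.1 with a wild-type mother (limma, log2 fold change 1.88, adjusted p = 0.429). Smooth muscle markers summed to 24570 to 30770 with an ApoE-null mother, against 23810 to 31392 with a wild-type mother. T cell and thymocyte markers summed to 411.1 to 675.2 with an ApoE-null mother, against 56.6 to 151.9 with a wild-type mother, without overlap, and all 6 measured genes were above 0 (limma, smallest adjusted p = 0.09). The part of these cells in the members' values was not tested. Scores of the members were -0.92 to 0.35 with an ApoE-null mother and -0.25 to 0.68 with a wild-type mother, which overlapped.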

How the data were processed

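RNA from carotid artery was labelled after 2 rounds of amplification with an oligo-dT primer, per the labels' protocols, and hybridised to Mouse 430 2.0 arrays. The deposited intensity values are MAS5 signals, and GCOS is the software that the submitters' processing notes name. Trimmed by 2%, the mean was 200.0 on each array, so the authors had scaled them, and that scaling was kept. Oligo-dT amplification reads the 3' ends of transcripts, and the number of arrays limits the precision.

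Signals were taken as log2(signal + 2), the pseudocount being the rounded 10th percentile, and fold changes on this scale understate changes of dim genes. After removal of 64 control probe sets, the 27027 with a mean above the 40th percentile (23.6) were fitted with limma 3.58.1 in R 4.3.3 (lmFit, eBayes with an intensity trend), as the difference of the ApoE-null mother group from the other. Benjamini-Hochberg adjusted p-values over all probe sets were read at a threshold of 0.05. Of 45101 probe sets, 34958 had 1 symbol, 932 several and 9211 none. All 26 member symbols were unchanged in RefSeq's table (GRCm38.p6). The fit was tested on simulated data. The members, lists and tests were chosen with earlier results of these data known. Named genes were the members and up to 3 genes per other list with the smallest p. Added after their values were seen were Acta2, Th, Jun, Nrg1, Fabp7, Nefm, Myrf, Mog, Olig2, Ermn, Mobp, Opalin, Hapln2, Xist, Zeb2, Nab1 and Fgd4. So were the genes named for their lowest arrays. Alternatives were another pseudocount, filter, normalization, trend, probe set, 1 probe set per gene, and leaving out each array.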

Additional observations from a re-analysis of the deposited data

Results flagged for a closer look

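Each of the 21 measured members was examined for 1 array far from the other 3 of the ApoE-null mother group, which by chance happens in about 1 of 20 groups. Ncam1 was the 1 member found, with a signal of 2867.8 on ApoE-null mother 3 against 3240.2 to 3316.2 on the other arrays of that group. The wild-type mother group, with 3 arrays, was too small for this reading.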

How the results depend on the processing

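Of 290 member values under alternatives, 280 kept their direction and their side of the threshold, and none came to pass it. The 10 with the opposite sign belonged to 6 members that had not passed. With other probe sets, Sox10 was at 0.23, Mbp at 0.028 and 0.42, Ncam1 at 0.14 and 0.23, and Scn7a at 0.62. When 1 array was left out, Egr2 ran from -0.21 to 0.41 and Mal from -0.43 to 0.13. The count of members past the threshold was 0 under every alternative run. Members without overlap between the crosses numbered 3 to 10 when 1 array was left out, and the median of the members was -0.79 (without ApoE-null mother 1) to -0.27 (without wild-type mother 3). With a pseudocount of 16 it was -0.44. Without a filter on mean signal it was -0.33, over 26 members. Probe sets past the threshold in the whole table numbered 2 with quantile normalization, 0 without an intensity trend, and 0 to 18 when 1 array was left out. No paired analysis was possible because the labels give no numbers shared between the crosses. Dim members (Pou3f1, Ugt8a, Foxd3 on ApoE-null mother 2, and Sox10 on 2 arrays) lie near the bacterial probe sets, which limits their precision. Causes of these changes were not tested.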
